A study of Rattus norvegicus with 6 samples.

Results

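The genes of the mitochondrial respiratory chain and ATP synthase that lie in the nuclear genome were examined in 3 libraries of spinal cord tissue from SNI-NP rats and 3 from sham rats. Members were the genes of the deposited table whose symbols start with *Nduf* followed by a, b, c, s or v, with *Uqcr*, with *Cox4* to *Cox8* or with *Atp5*, or are *Sdha*, *Sdhb*, *Sdhc* or *Sdhd*. A sum of at least 60 estimated counts over the 6 libraries was also required. Of 97 entries with such a symbol, 92 reached this minimum, out of 22050 entries in the whole table. They comprised 46 entries of complex I, 4 of complex II, 9 of complex III, 16 of complex IV and 17 of complex V. *Uqcrb*, *Cox6b1* and *Ndufa10l1* were each listed under a pair of Ensembl identifiers, so the members carried 89 symbols. The 5 entries left out were *Cox8b*, *Cox8c*, *Cox7b2*, *Cox6c-ps1* and another entry of *Ndufv3*, with sums from 0 to 40.7 counts. Just above the minimum were *Ndufa1*, *Cox6b2*, *Cox6a2* and *Cox7a1*, with sums of 73.3, 107, 151 and 154 counts.

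The rats were male Sprague–Dawley rats aged 8 to 10 weeks. In the SNI-NP group, a model of neuropathic pain, branches of the sciatic nerve were injured and the sural branch was spared, and sham rats served as the control. Total RNA was extracted from the tissue for sequencing, and the paper does not state how RNA was selected for the libraries. The time between surgery and tissue collection for sequencing, and the side and level of the cord, were not given in the sources used here.

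The respiratory chain passes electrons from NADH and succinate to oxygen in the inner mitochondrial membrane. Complex I (NADH dehydrogenase) and complex II (succinate dehydrogenase) hand electrons to coenzyme Q, complex III to cytochrome c, and complex IV (cytochrome c oxidase) to oxygen. Complexes I, III and IV pump protons, and complex V (ATP synthase) uses the proton gradient to make ATP. Mitochondrial DNA encodes a few central subunits of complexes I, III, IV and V, whereas all subunits of complex II and most of the others are nuclear. Neurons depend on this chain for firing and axonal transport, and nuclear respiratory factors, ETS family factors and YY1 are known to bind promoters of many of its nuclear genes.

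Because the members are transcribed from separate nuclear promoters, their promoter sequences were compared. RefSeq promoter windows of the rat build GRCr8, from 250 bases before to 50 bases after the start of transcription, were found for 78 of the 89 symbols, 77 by symbol and 1 by synonym (*Atp5md*, listed there as *Atp5mk*). Those without a match included *Cox4i2*, *Cox6a1*, *Cox6c*, *Uqcr11* and *Uqcrb*. The following 8-letter or shorter sequences were searched on both strands. An ETS sequence (CCGGAAG) was present in 22 of the 78 windows (28.2%) and in 8.75% of all 33469 windows. A YY1 sequence (AAGATGGC) was present in 16 (20.5%, against 3.17% of all windows), and an NRF-1 sequence (GCGCATGC) in 10 (12.8%, against 2.47%). At least 1 of these 3 was found in 36 windows (46.2%), compared with 13.3% of all windows. The GC box (GGGCGG) was found in 31 windows (39.7%, against 33.1%), the TATA sequence (TATAAA) in 6 (7.69%, against 14.2%) and the CRE sequence (TGACGTCA) in 3 (3.85%, against 1.83%). None of these sequences contains another, but the NRF-1 sequence can overlap its own reverse strand, as in GCGCATGCGC. These shares describe letters only and were not tested.

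Stretches of 200 bases before the start are shown for the member with the smallest p-value in each complex that had a window, and for *Atp5me*. Within such stretches no member had more NRF-1, ETS and YY1 matches than *Atp5me*, with overlapping matches counted separately. The coordinates are of GRCr8, each sequence is written 5′ to 3′ on the gene's strand, and capitals mark NRF-1, ETS, YY1 or CRE matches on either strand.
Ndufaf4 (complex I, chr5:43401595-43401794, strand +): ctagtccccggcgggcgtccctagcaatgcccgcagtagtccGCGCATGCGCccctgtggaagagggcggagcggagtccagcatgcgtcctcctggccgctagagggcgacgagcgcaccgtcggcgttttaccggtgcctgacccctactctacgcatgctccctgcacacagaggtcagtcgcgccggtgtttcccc
Sdha (complex II, chr1:30764353-30764552, strand +): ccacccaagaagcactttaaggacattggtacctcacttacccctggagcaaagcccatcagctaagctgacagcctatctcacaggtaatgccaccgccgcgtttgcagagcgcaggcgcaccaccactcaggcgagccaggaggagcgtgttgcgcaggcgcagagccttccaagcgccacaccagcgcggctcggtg
Uqcrc2 (complex III, chr1:184599040-184599239, strand +): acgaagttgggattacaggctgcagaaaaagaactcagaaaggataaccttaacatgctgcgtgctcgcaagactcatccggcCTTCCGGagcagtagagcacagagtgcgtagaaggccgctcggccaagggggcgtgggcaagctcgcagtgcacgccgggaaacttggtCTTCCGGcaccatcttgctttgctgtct
Cox7b (complex IV, chrX:75148836-75149035, strand +): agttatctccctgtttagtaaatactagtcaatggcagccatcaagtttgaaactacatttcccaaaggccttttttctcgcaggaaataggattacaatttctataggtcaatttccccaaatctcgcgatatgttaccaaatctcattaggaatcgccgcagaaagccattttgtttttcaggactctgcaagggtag
Atp5md (complex V, chr1:255922048-255922247, strand -): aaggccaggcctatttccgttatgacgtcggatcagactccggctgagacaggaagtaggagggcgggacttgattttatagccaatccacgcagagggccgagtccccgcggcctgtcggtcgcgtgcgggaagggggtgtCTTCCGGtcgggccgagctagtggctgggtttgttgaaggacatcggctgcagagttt
Atp5me (complex V, chr14:1464660-1464859, strand +): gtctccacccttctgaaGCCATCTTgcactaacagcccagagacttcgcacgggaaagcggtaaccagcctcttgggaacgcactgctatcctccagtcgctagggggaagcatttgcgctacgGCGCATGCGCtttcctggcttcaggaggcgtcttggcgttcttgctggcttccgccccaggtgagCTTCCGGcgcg
Positions are given for the first base of a match, counted back from the start. *Ndufaf4* had an NRF-1 match on each strand, overlapping at -158 and -156. *Uqcrc2* had ETS matches at -117 and -28 and *Atp5md* had an ETS match at -58. *Atp5me* had a YY1 match at -183, overlapping NRF-1 matches at -76 and -74, and an ETS match at -11. No match was found in the windows of *Sdha* and *Cox7b*. Of the 8 windows of members with an unadjusted p-value under 0.05, described further on, 1 held an NRF-1 match, 2 an ETS match and 0 a YY1 match.

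The total of estimated counts was between 16670760 and 18151156 per library, and a gene without a count could still be present at 0.167 to 0.18 CPM, a unit of counts in which libraries are put on 1 scale. This limit covers counting error only. Levels between genes were compared in FPKM (a count scaled by gene length and library total), and groups were compared in counts with edgeR's quasi-likelihood test. Each library was counted as 1 replicate of its group, and the labels do not state whether replicates came from separate rats. The summed level of 7 markers of Schwann cells, which form the myelin of peripheral nerves, was between 75900 and 116000 CPM. It was above that of 8 markers of oligodendrocytes, the myelin cells of the spinal cord (30300 to 41300 CPM). RNA of peripheral nerve was therefore abundant in these libraries, and markers of dorsal root ganglion neurons were present too. Whether roots or ganglia were taken with the cord was not given in the sources used here, so the levels of the members cannot be assigned to spinal cord cells alone. Other spinal cord markers were present, with *Gfap* of astrocytes between 332 and 863 CPM and *Chat* of motor neurons between 3.66 and 13.4 CPM.

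The share of all counts that belonged to the members was 0.763% to 0.946%, depending on the library. Complex V was the most abundant, with a median FPKM of 185 over its 17 members, followed by complex IV (112), complex II (105), complex I (64.1) and complex III (63.4). These medians differ in how many low-level isoforms and duplicate entries they include, so neighbouring complexes were not ranked by a test. The highest member was *Atp5f1b*, the catalytic beta subunit of ATP synthase, with 684, 583 and 708 FPKM in sham rats and 637, 737 and 614 FPKM in SNI-NP rats. Its partner *Atp5f1a*, the alpha subunit, had a mean of 352 FPKM. In complex IV, *Cox8a*, *Cox6a1* and *Cox4i1* had means of 405, 403 and 394 FPKM, and these subunits are the forms known from most tissues. The counterparts of muscle, lung and testis were far lower, with means of 3.06 FPKM for *Cox6a2*, 3.51 for *Cox4i2*, 2.18 for *Cox6b2* and 0.99 for *Cox7a1*.

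**Figure D1:**
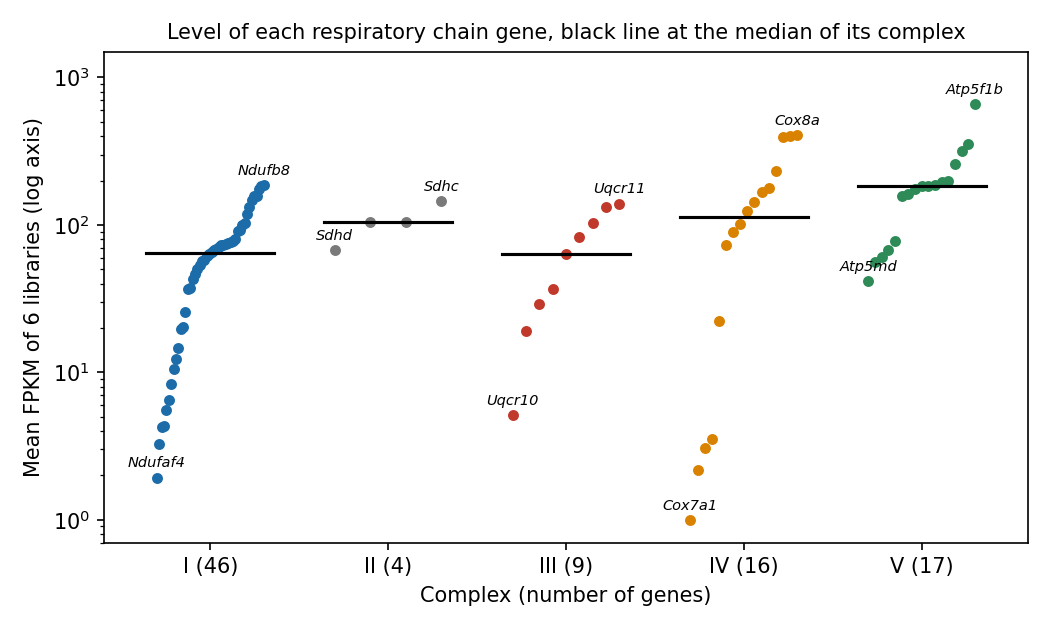
Mean FPKM of the 6 libraries (log axis) for each of the 92 members, grouped by complex, with the number of members in parentheses and a black line at the median. The levels run from 0.99 FPKM for *Cox7a1* to 661 FPKM for *Atp5f1b*, and the medians from 63.4 FPKM in complex III to 185 FPKM in complex V.

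In complex I, the highest members were *Ndufb8* and *Ndufb4*, both accessory subunits of the membrane arm, at 185 FPKM each. The lowest was *Ndufaf4*, an assembly factor that does not stay in the finished complex, at 1.92 FPKM. The 7 core subunits, which include *Ndufs1*, *Ndufs8* and *Ndufv1* and bind the cofactors that carry electrons, lay between 46.1 and 157 FPKM. In complex III, *Uqcr11* and *Uqcrc1* led with 139 and 133 FPKM, and the small subunit *Uqcr10* had 5.10 FPKM. In complex II, the mean was 144 FPKM for the membrane anchor *Sdhc*, 105 for the iron-sulfur subunit *Sdhb*, 105 for the flavoprotein *Sdha* and 67.1 for the other anchor *Sdhd*.

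The comparison between the groups asked whether the chain differed in SNI-NP rats. No member passed an adjusted p-value of 0.05, and 0 of all 14426 genes tested did (0.0%) with edgeR, against 210 genes and 0 members with DESeq2. The smallest adjusted p-value of a member was 0.351. At an unadjusted p-value under 0.05, 10 of the 92 members were lower in SNI-NP rats and 0 were higher. The share of members called in either direction, 10.9%, was that of all genes tested (10.8%). In all genes, 5.94% were lower and 4.91% were higher at this threshold. The log2 fold change was below 0 for 72 of the 92 members (78.3%) and for 49.1% of all genes tested. The median log2 fold change was -0.08 over the members and 0.01 over all genes. All 92 members were among the genes tested, and with 85 of them the 95% interval of the change lay within a 2-fold difference either way. The SE of a member's change had a median of 0.14 on the log2 scale.

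**Figure D2:**
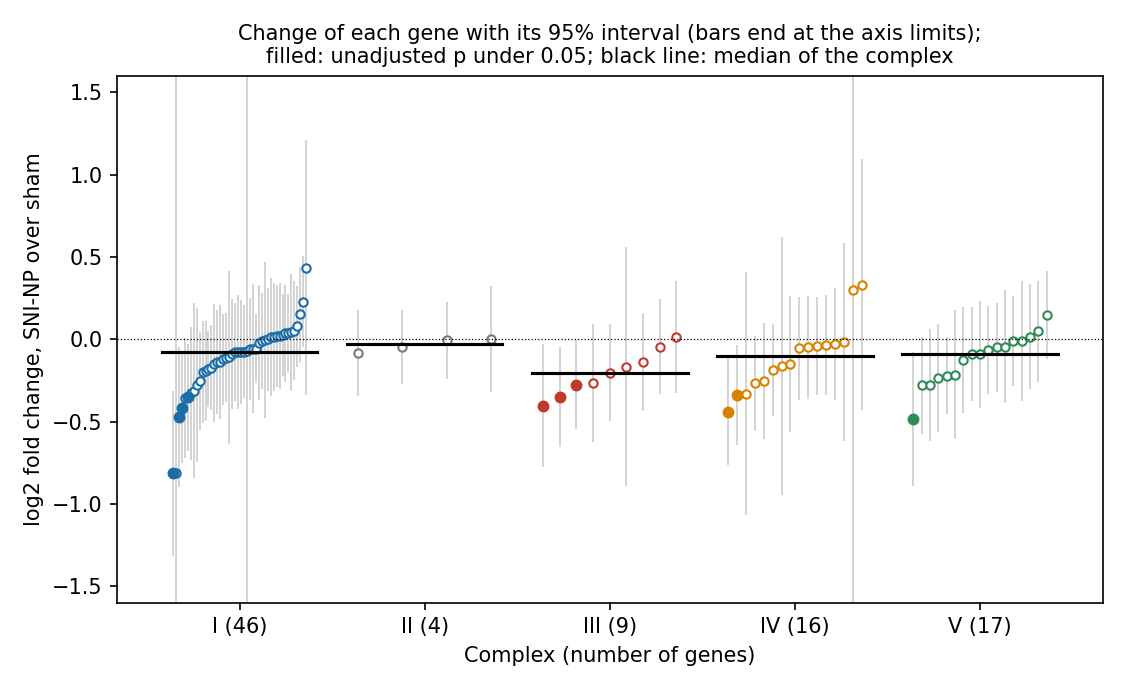
The log2 fold change of each member (SNI-NP over sham, edgeR) with its 95% interval in grey, grouped by complex and sorted within it. Filled points are the 10 members with an unadjusted p-value under 0.05, all lower in SNI-NP rats, and black lines are the medians, from -0.20 in complex III to -0.03 in complex II.

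In 14 members all SNI-NP libraries were below all sham libraries (15.2%, against 8.15% of all genes tested), and in 1 member, *Ndufa7*, all SNI-NP libraries were above (10.4% of all genes tested). The 14 comprised the 10 members above and *Ndufaf1*, *Ndufb4*, *Cox6c* and *Atp5pb*. *Ndufa7*, an accessory subunit of complex I, had 28.0, 29.9 and 30.1 CPM in sham rats and 33.7, 38.3 and 31.1 CPM in SNI-NP rats. Its log2 fold change was 0.23 (SE 0.12, adjusted p = 0.505).

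The complexes differed in their medians. The median log2 fold change was -0.20 in complex III, -0.10 in complex IV, -0.09 in complex V, -0.08 in complex I and -0.03 in complex II. In the same order, 8 of 9, 14 of 16, 14 of 17, 33 of 46 and 3 of 4 members were below 0. Members with an unadjusted p-value under 0.05 numbered 3 in complex III (33.3%), 2 in complex IV (12.5%) and 1 in complex V (5.88%). They numbered 4 in complex I (8.7%) and 0 in complex II (0.0%), against 10.8% of all genes tested. Of the 3 in complex III, 2 were entries of *Uqcrb* that share reads. Complex III had the lowest median in all 20 settings compared, but with members with whole counts only it was level with complex IV, at -0.153 against -0.152. Complex II was nearest to 0 or highest in 19 of them, the exception being without sham replicate 3, where complex IV had -0.025 and complex II -0.036. The complexes were not tested against each other, since genes of 1 library are not replicates.

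In complex I, the largest difference was in *Ndufaf4*. It had 6.96, 8.51 and 6.93 CPM in sham rats and 5.12, 3.61 and 4.0 CPM in SNI-NP rats, so that the groups did not overlap. Its log2 fold change was -0.81 (SE 0.21, 95% interval -1.32 to -0.32, adjusted p = 0.351), or 43.2% less in SNI-NP rats. It kept an unadjusted p-value under 0.05 in all 17 alternative settings. The 8 *Ndufaf* assembly factors were all below 0, with a median of -0.17, and *Ndufaf4* was the only one of them past the unadjusted threshold. *Ndufaf1* had 17.8, 17.8 and 17.3 CPM in sham rats and 11.1, 16.9 and 14.1 CPM in SNI-NP rats (log2 fold change -0.33, SE 0.17, adjusted p = 0.509). *Ndufaf5* had a log2 fold change of -0.36 with overlapping groups, and *Ndufaf6* one of -0.01.

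The other complex I members past the unadjusted threshold were accessory subunits. *Ndufb3*, of the membrane arm, had 29.8, 25.5 and 33.6 CPM in sham rats and 22.2, 24.1 and 20.3 CPM in SNI-NP rats (log2 fold change -0.42, SE 0.14, adjusted p = 0.436). *Ndufc1* had 8.22, 8.0 and 10.7 CPM in sham rats, with sham replicate 3 the highest, and 6.50, 6.44 and 6.49 CPM in SNI-NP rats (log2 fold change -0.47, SE 0.18, adjusted p = 0.442). *Ndufa5*, of the matrix arm, had 35.4, 40.3 and 37.8 CPM in sham rats and 26.6, 35.0 and 27.2 CPM in SNI-NP rats (log2 fold change -0.35, SE 0.14, adjusted p = 0.445). In *Ndufa5*, SNI-NP replicate 2 was just below the lowest sham library.

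The 7 core subunits of complex I had a median log2 fold change of 0.01, with a range from -0.25 in *Ndufs1* to 0.15 in *Ndufs8*, and 3 of the 7 were below 0. Of these 7, 0 passed the unadjusted threshold, against 3 of 29 other subunits and 10.8% of all genes tested. The 29 leave out *Ndufa4* and *Ndufa4l2*, and the difference between core and other subunits was not tested. The most abundant accessory subunits had the following values, and they were not tested against each other. *Ndufb8* had a mean of 131 CPM in both groups (SD 16.9 in sham and 13.4 in SNI-NP rats, n = 3 each), with a log2 fold change of -0.001 (SE 0.13). *Ndufb4* had 90.8, 85.2 and 91.2 CPM in sham rats and 84.0, 80.0 and 71.7 CPM in SNI-NP rats (log2 fold change -0.18, SE 0.10, adjusted p = 0.522).

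*Ndufa4* and its paralog *Ndufa4l2*, named for complex I and since assigned to complex IV, went opposite ways without passing the threshold. *Ndufa4* had 127 ± 6.70 CPM in sham rats against 120 ± 23.5 CPM after SNI-NP (SD, n = 3 each). *Ndufa4l2*, known as a gene induced by low oxygen, had 5.64, 3.55 and 4.19 CPM in sham rats and 8.63, 4.0 and 5.45 CPM in SNI-NP rats. Its log2 fold change of 0.43 (SE 0.33, adjusted p = 0.628) was the highest of all members, and SNI-NP replicate 1 alone was above all sham libraries.

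Complex II had the median closest to 0. *Sdha*, which holds the site for succinate, had 270, 216 and 251 CPM in sham rats and 232, 237 and 226 CPM in SNI-NP rats (log2 fold change -0.09, 95% interval -0.35 to 0.18). *Sdhb* had 105 ± 6.95 CPM in sham and 101 ± 3.50 CPM in SNI-NP rats, with an interval from -0.27 to 0.18. The anchors had log2 fold changes of 0.001 (*Sdhc*, interval -0.32 to 0.33) and -0.01 (*Sdhd*, interval -0.24 to 0.23). The adjusted p-values of these 4 genes were at least 0.794, and the intervals of all 4 include the median of complex III, -0.20.

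In complex III, 3 entries passed the unadjusted threshold, of the genes *Uqcrb* and *Uqcrc2*. The 6 entries of *Uqcrb*, *Uqcrh*, *Uqcrq*, *Uqcr10* and *Uqcr11* were all below 0, with a median log2 fold change of -0.23. Of these, 2 passed the unadjusted threshold, both of *Uqcrb*, and 10.8% of all genes tested passed it. *Uqcrb* helps to form the coenzyme Q binding region. Its first entry, ENSRNOG00000024967, had 22.7, 22.7 and 20.7 CPM in sham rats and 16.8, 19.4 and 15.7 CPM in SNI-NP rats (log2 fold change -0.35, SE 0.13, adjusted p = 0.436). Its other entry, ENSRNOG00000032204, had 14.2, 17.9 and 14.7 CPM in sham rats and 12.7, 12.4 and 10.3 CPM in SNI-NP rats (log2 fold change -0.40, SE 0.16, adjusted p = 0.445). The counts of both entries were not whole but their sums were, so they share reads and are not 2 independent results. Summed, they gave 37.6 ± 2.66 CPM in sham rats against 29.1 ± 2.92 CPM after SNI-NP (SD, n = 3 each), with a log2 fold change of -0.37 (SE 0.12, adjusted p = 0.435).

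The core protein *Uqcrc2* had 144, 119 and 116 CPM in sham rats and 99.3, 110 and 105 CPM in SNI-NP rats (log2 fold change -0.28, SE 0.12, adjusted p = 0.453), and the groups did not overlap. Its partner *Uqcrc1* had 214 ± 33.9 CPM in sham and 216 ± 21.7 CPM in SNI-NP rats, a log2 fold change of 0.02 (SE 0.14). *Uqcrfs1*, the Rieske iron-sulfur protein, had a log2 fold change of -0.05 (SE 0.12). The abundant small subunit *Uqcr11* had 74.2 ± 8.72 CPM in sham and 67.4 ± 7.16 CPM in SNI-NP rats (log2 fold change -0.14, SE 0.13), and *Uqcr10*, the lowest member of the complex, had one of -0.17 (SE 0.31).

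In complex IV, *Cox7b* and *Cox7c*, small subunits of the membrane part, were lowest. *Cox7b* had 51.9, 45.4 and 51.1 CPM in sham rats and 33.9, 43.2 and 32.2 CPM in SNI-NP rats (log2 fold change -0.44, SE 0.14, 95% interval -0.77 to -0.12, adjusted p = 0.436), or 26.3% less. Like *Ndufaf4*, it kept an unadjusted p-value under 0.05 in all 17 alternative settings. *Cox7c* had 70.1, 79.1 and 76.8 CPM in sham rats and 56.7, 69.8 and 52.3 CPM in SNI-NP rats (log2 fold change -0.34, SE 0.13, adjusted p = 0.442). In both genes, SNI-NP replicate 2 was the highest of its group and close to the lowest sham library. *Cox6c* showed the same order without passing the threshold (log2 fold change -0.27, SE 0.12, adjusted p = 0.478).

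The most abundant members of complex IV differed by less than their spread. *Cox4i1*, the isoform of most tissues, had 292 ± 37.9 CPM in sham and 284 ± 22.4 CPM in SNI-NP rats, and *Cox6a1* had 225 ± 21.2 and 217 ± 31.0 CPM. *Cox8a* had 205 ± 24.5 and 197 ± 23.4 CPM (SD, n = 3 per group throughout). *Cox4i2*, the isoform known from lung and low oxygen, had a log2 fold change of -0.02 (SE 0.26). *Cox6b1* was listed under 2 identifiers that share reads, and the sum of both had a log2 fold change of -0.07 (SE 0.14). *Cox6b2*, known from testis, had -0.16 (SE 0.33) at about 1 CPM.

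The muscle isoforms *Cox6a2* and *Cox7a1* were the only members of complex IV above 0. The direction of *Cox6a2* was not stable, with a log2 fold change of -0.65 without SNI-NP replicate 3, -0.35 with limma on FPKM, -0.09 with a replicate block and -0.06 with length offsets and that block. *Cox6a2* had 1.92, 0.732 and 1.28 CPM in sham rats and 1.55, 0.167 and 3.13 CPM in SNI-NP rats (log2 fold change 0.30, SE 0.83), and the value of 0.167 was at the limit that a count of 0 allows. *Cox7a1* had 1.32, 1.35 and 1.22 CPM in sham rats and 1.21, 1.67 and 2.03 CPM in SNI-NP rats (log2 fold change 0.33, SE 0.33). Both were highest in SNI-NP replicate 3. The muscle genes *Acta1* and *Ckm* were also highest there, at 177 and 70.8 CPM against at most 34.7 and 13.4 CPM in sham rats. In SNI-NP replicate 1 they were also above all sham libraries, at 58.4 and 29.0 CPM, but *Cox7a1* was at its lowest. In SNI-NP replicate 2 they were at their lowest, at 5.39 and 1.33 CPM. There *Cox6a2* was lowest too, but *Cox7a1* was above all sham libraries. The summed level of 10 skeletal muscle markers was 44.4 to 113 CPM in sham rats and 37.5 to 515 CPM in SNI-NP rats. Of these sums, *Pvalb* alone gave 29.2, 27.8 and 53.9 CPM in sham and 15.7, 25.4 and 19.4 CPM in SNI-NP rats. It went the opposite way to the other markers of the list, and was most of the sum in sham replicates 1 and 3 and SNI-NP replicate 2. The part of muscle RNA in the values of *Cox6a2* and *Cox7a1* was not tested.

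In complex V, the head and central stalk differed little between the groups. *Atp5f1b* had 1153 ± 138 CPM in sham and 1192 ± 98.6 CPM in SNI-NP rats (log2 fold change 0.05, SE 0.13, 95% interval -0.26 to 0.35). *Atp5f1a* had 649 ± 95.9 and 656 ± 43.0 CPM (log2 fold change 0.015, SE 0.14). The 5 genes *Atp5f1a* to *Atp5f1e* had a median log2 fold change of -0.01 and a range from -0.09 to 0.05, and 0 passed the threshold.

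The small membrane subunits of complex V had values below 0. *Atp5md*, a small subunit linked to the pairing of ATP synthase dimers, was both the lowest in level and the only member of the complex past the unadjusted threshold. It had 13.0, 13.8 and 17.99 CPM in sham rats and 10.8, 11.6 and 9.62 CPM in SNI-NP rats (log2 fold change -0.49, SE 0.17, adjusted p = 0.436). *Atp5mf* had 112, 120 and 126 CPM in sham rats and 92.8, 114 and 87.8 CPM in SNI-NP rats, with 1 overlapping library (log2 fold change -0.28, SE 0.13, adjusted p = 0.475). With *Atp5me* and *Atp5mg*, these 4 had a median log2 fold change of -0.25. The peripheral stalk, made of *Atp5pb*, *Atp5pd*, *Atp5pf* and *Atp5po*, had a median of -0.14, and the c ring genes *Atp5mc1*, *Atp5mc2* and *Atp5mc3* one of -0.04 with a range from -0.13 to 0.15. The counts of *Atp5pb* were the same in all 6 libraries as those of another entry, LOC100911417, so its value rests on reads that 2 entries share.

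**Figure D3:**
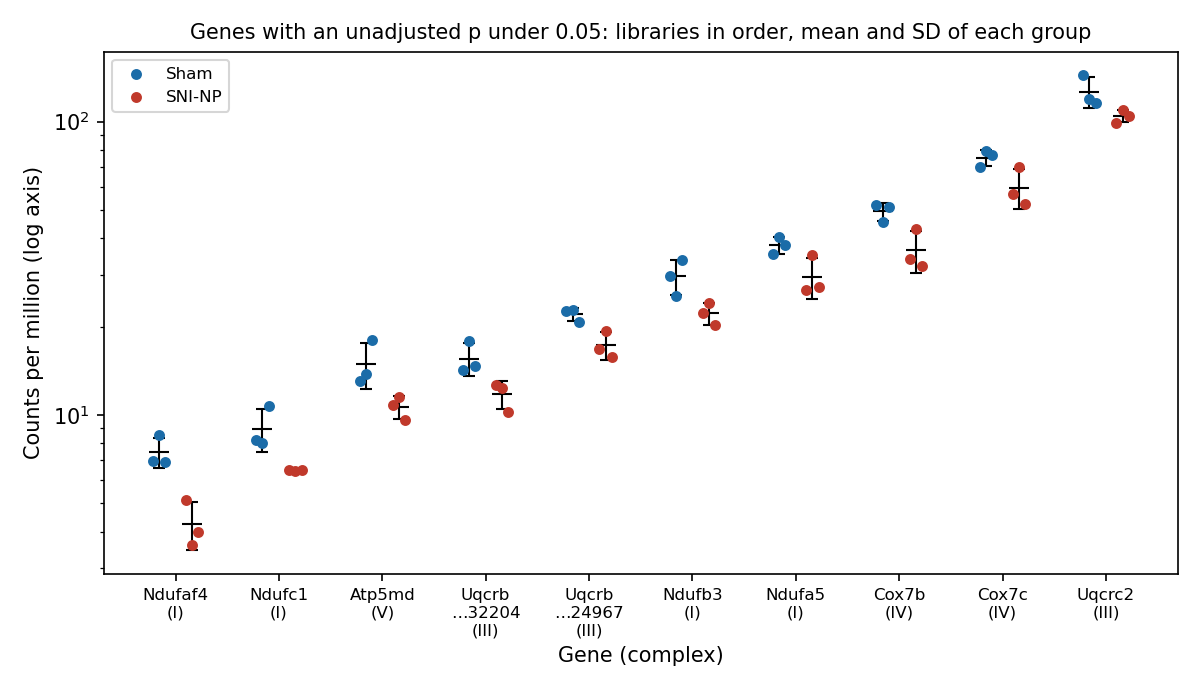
CPM (log axis) in each library of the 10 members with an unadjusted p-value under 0.05, ordered by level, with sham libraries in blue, SNI-NP libraries in red, and the mean and SD of each group (n = 3) in black. In each gene all SNI-NP libraries lie below all sham libraries, and the 2 *Uqcrb* entries are told apart by the last digits of their identifiers.

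The members also varied together among libraries of the same group. The median deviation of the members from their 6-library mean was 0.07, -0.07 and 0.16 on the log2 scale in sham replicates 1, 2 and 3 and -0.06, 0.09 and -0.17 in SNI-NP replicates 1, 2 and 3. The group means of these medians differed by -0.10, compared with a pooled SD within groups of 0.12, so the shift of the chain as a whole was smaller than the spread between libraries. Complex III differed by -0.18 against an SD of 0.13. The 8 *Ndufaf* assembly factors differed by -0.20 against an SD of 0.06, with medians of 0.14, 0.03 and 0.17 in sham and -0.06, -0.05 and -0.14 in SNI-NP libraries, which did not overlap. Sham replicate 3 was the highest library for 40 members and SNI-NP replicate 3 the lowest for 44. SNI-NP replicate 2 was the highest for 24 members, and sham replicate 2 the lowest for 26. Sham replicate 3 was positive and SNI-NP replicate 3 negative in each of the 5 complexes.

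The count of members past the unadjusted threshold rested on single libraries. Only 2 members passed when SNI-NP replicate 3 was left out, and they were *Ndufaf4* and *Cox7b*, with 6.28% of all genes past the threshold. When sham replicate 3 was left out 4 passed (6.97% of all genes), and when SNI-NP replicate 1 was, 5 did (13.1% of all genes). Omitting SNI-NP replicate 2 instead gave 15 (9.5% of all genes). All of these were lower in SNI-NP rats. The median of complex III ran from -0.14, without SNI-NP replicate 3, to -0.31 when the second SNI-NP library was omitted. That of complex IV ran from -0.025, without sham replicate 3, to -0.18 in the latter setting.

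**Figure D4:**
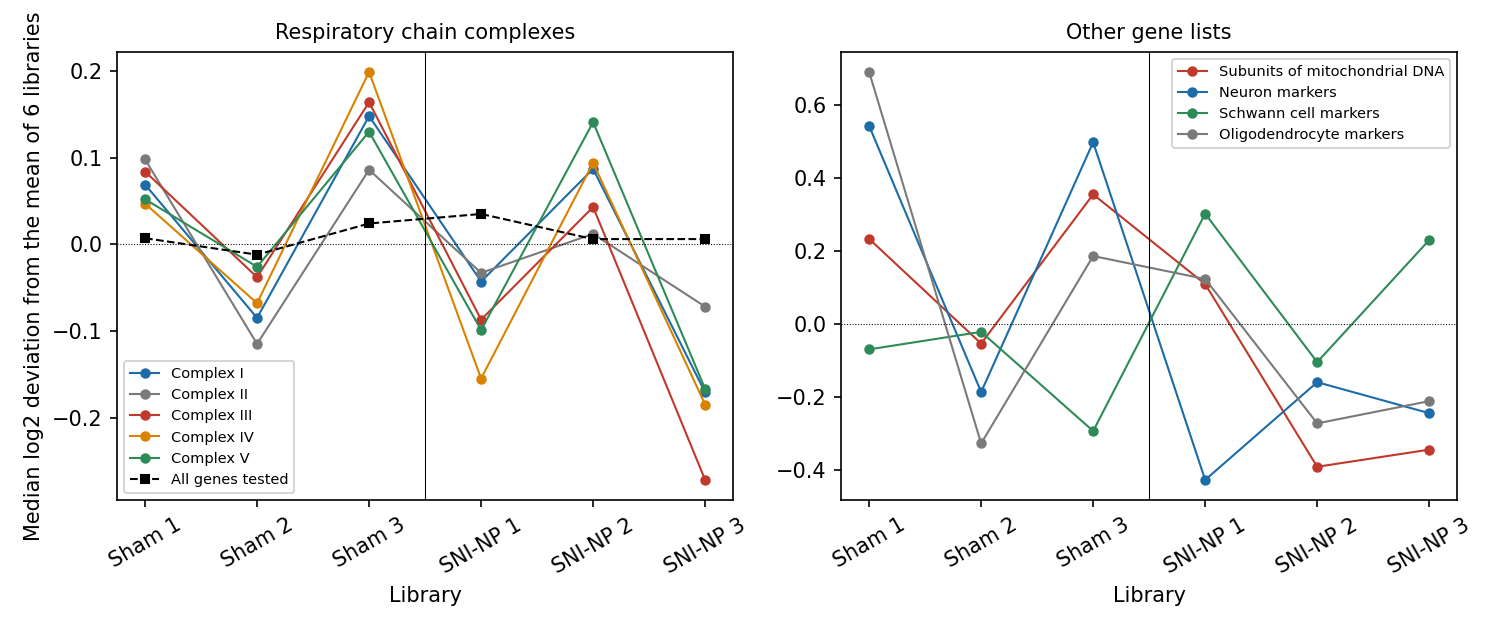
Left, median log2 deviation of each complex, and of all genes tested (dashed), from the mean of the 6 libraries. Right, the same for subunits encoded by mitochondrial DNA and for markers of 3 cell types, on a wider axis. All complexes are highest or near highest in sham replicate 3 and low in SNI-NP replicate 3, and Schwann cell markers are lowest in sham replicate 3 (-0.29) and high in SNI-NP replicates 1 and 3 (0.30 and 0.23).

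Markers of cell types also moved with these libraries. The median deviation of 7 Schwann cell markers was -0.07, -0.02 and -0.29 in sham and 0.30, -0.10 and 0.23 in SNI-NP replicates 1, 2 and 3, thus lowest where the members were highest. Their summed level was 75900 to 91600 CPM in sham and 87300 to 116000 CPM in SNI-NP rats, and 1 of the 7 was higher at the unadjusted threshold. The 13 neuron markers had a summed level of 6810 to 9970 CPM in sham and 3210 to 7490 CPM in SNI-NP rats. Their median log2 fold change was -0.55, with 4 lower and 0 higher at the unadjusted threshold. Over all genes tested, 5.94% were lower and 4.91% were higher. *Snap25*, a synaptic protein of neurons, had 278, 156 and 254 CPM in sham and 177, 130 and 132 CPM in SNI-NP rats. In tissue RNA, fewer cells of a type and less RNA per cell cannot be told apart, and the part of these markers in the members' values was not tested.

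The other marker lists gave the following values, beside 5.94% of all genes tested lower and 4.91% higher at the unadjusted threshold. Of 8 astrocyte markers 1 was lower, with a median log2 fold change of -0.19, and of 8 oligodendrocyte markers 0 passed, with a median of -0.35. For 10 markers of microglia and macrophages the median was -0.04, with 0 past the threshold. The 10 markers of dorsal root ganglion neurons had a median of 0.04, with summed levels from 897 to 1811 CPM in sham rats, 321 CPM in SNI-NP replicate 1 and 2498 CPM in SNI-NP replicate 2. Of the 10 skeletal muscle markers 1 was lower (*Pvalb*, -0.875) and 1 was higher (*Myh4*, 3.01), with a median of 2.25. All of them except *Pvalb* were above 0. Higher at the unadjusted threshold were 4 of 6 red cell genes (median 0.99) and 2 of 7 granulocyte precursor genes (median 1.09). Of 6 genes listed for brown fat only 2 were tested, *Cpt1b* (0.76, higher at this threshold) and *Adipoq* (0.25). These 2 genes cannot decide whether brown fat was present.

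Short members had lower values than longer ones, and so did short genes among all genes tested. Over the whole range of lengths, the trend across all genes ran the other way. The Spearman correlation of log2 fold change with length was -0.12 across 14196 genes and 0.16 across the members, and with mean FPKM it was 0.26 across the members. Genes are not independent replicates, so these are descriptions. The members had a median length of 728 bases, against 2282 bases over all genes tested. Of the members, 38 (41.3%) were at most 600 bases long, compared with 2.51% of all genes. These 38 had a median log2 fold change of -0.16 and the 54 longer ones -0.05. All 357 genes tested of at most 600 bases had a median of -0.08 (61.1% below 0), against 0.01 (48.6% below 0) for the 13839 longer genes. The contrast was seen in complex IV (-0.19 for 11 short and -0.03 for 5 longer members) and complex V (-0.22 for 7 and -0.03 for 10). It was not seen in complex I (-0.08 for both) or complex III (-0.22 for 4 and -0.20 for 5). SNI-NP replicate 3, the lowest library for 44 members, was also the lowest for all short genes, with a median deviation of -0.17. With offsets that remove the trend over length, the median of the members was -0.09 and 12 members were lower and 1 was higher at the unadjusted threshold. Over all genes in that setting the median was 0.05, with 5.05% lower and 9.06% higher.

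**Figure D5:**
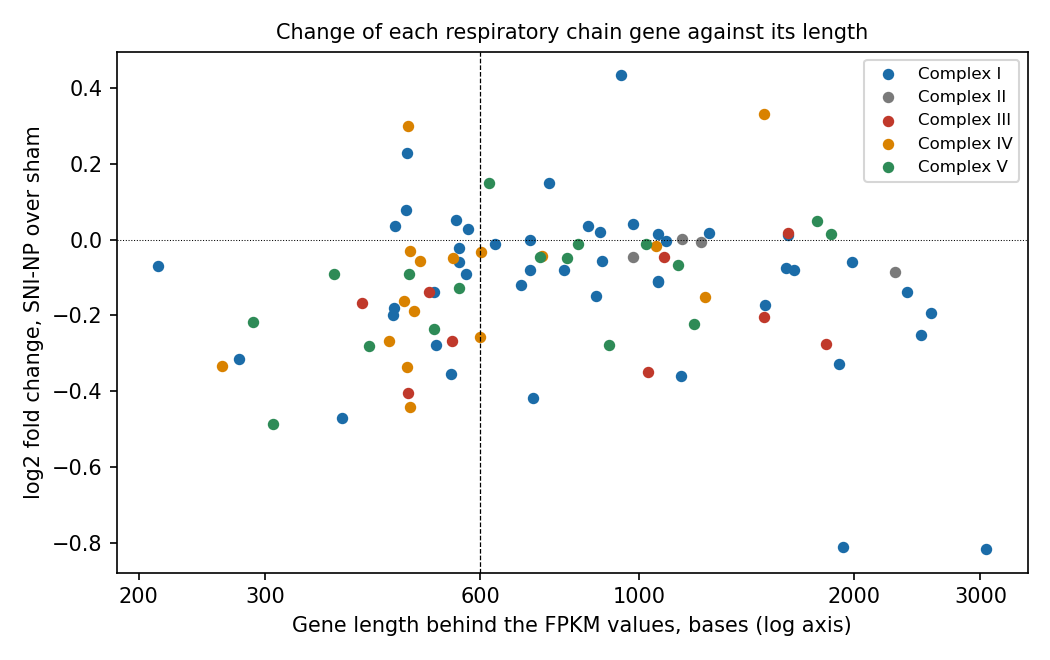
The log2 fold change of each member (SNI-NP over sham) against its length in bases (log axis), coloured by complex, with a dashed line at 600 bases. Short members of complexes IV and V lie mostly below 0, and the longest member, *Ndufaf4*, has the lowest value.

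Shared reads limited a few members. Counts were not whole for 14 members, which had a median log2 fold change of -0.17 with 4 past the unadjusted threshold. The 78 others had a median of -0.08 with 6. Of all genes tested, 10.8% passed this threshold, and the 4 include both entries of *Uqcrb*, which share reads. The *Ndufa1* entry held 2.59% of the counts it shared with LOC108348144, and the sum of both had a log2 fold change of -0.29 (SE 0.15). The entry ENSRNOG00000062245 of *Ndufa10l1* had 307, 234 and 1.15 counts in sham and 0, 324 and 0 counts in SNI-NP rats. Summed with its other entry, the log2 fold change of *Ndufa10l1* was -0.10 (SE 0.13). *Ndufs6* was present only under 2 LOC symbols with the same counts (log2 fold change -0.36, SE 0.13, adjusted p = 0.436) and was therefore no member.

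Partners of the chain that the symbols do not cover were compared by lists. For each list, the share of all genes tested at the unadjusted threshold was 5.94% lower and 4.91% higher. Of the 13 subunits encoded by mitochondrial DNA, 5 were lower and 0 higher at this threshold, with a median log2 fold change of -0.39. *Mt-nd6*, of complex I, had 143, 162 and 157 CPM in sham and 112, 83.3 and 94.7 CPM in SNI-NP rats (log2 fold change -0.67, SE 0.13, adjusted p = 0.294). *Mt-atp8*, of complex V, had 92.0, 97.8 and 108 CPM in sham and 77.2, 66.0 and 54.3 CPM in SNI-NP rats (log2 fold change -0.59, SE 0.14, adjusted p = 0.336). The groups did not overlap in either gene. *Mt-nd4l* had a log2 fold change of -0.72 (SE 0.21), with SNI-NP replicate 1 just above sham replicate 2. *Mt-cyb* and *Mt-nd1*, also abundant, were at 0.11 and 0.08. The median deviation of this list was lowest in SNI-NP replicates 2 and 3, at -0.39 and -0.34, so SNI-NP replicate 2 was high for the nuclear members and low for the mitochondrial ones.

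Cytochrome c, the carrier between complexes III and IV, is encoded by *Cycs*. It had 102, 103 and 100 CPM in sham and 66.7, 92.8 and 74.5 CPM in SNI-NP rats (log2 fold change -0.38, SE 0.13, adjusted p = 0.436). *Cyc1*, the cytochrome c1 of complex III, had a log2 fold change of -0.03. Of 36 further assembly factors 1 was lower, *Cox11* (-0.37), and 0 were higher, with a median of -0.05. *Coa3* and *Atpaf1* had the next smallest p-values of that list. None of 13 genes of coenzyme Q synthesis passed, and their median was 0.15.

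Among 23 transcription factors, coactivators and mitochondrial DNA factors, 3 were lower and 0 were higher at the unadjusted threshold. Their median log2 fold change was -0.08, and 5.94% of all genes tested were lower at that threshold. *Ppargc1a*, the coactivator known to drive mitochondrial genes, had 8.28, 4.85 and 8.79 CPM in sham and 5.98, 2.0 and 2.20 CPM in SNI-NP rats (log2 fold change -1.10, SE 0.46, adjusted p = 0.454). *Esrrg*, a nuclear receptor that works with it, had 22.1, 11.4 and 19.1 CPM in sham and 12.8, 5.89 and 9.16 CPM in SNI-NP rats (log2 fold change -0.92, SE 0.34, adjusted p = 0.436). In both, SNI-NP replicate 1 was above sham replicate 2. *Mterf1*, a factor of mitochondrial transcription termination, had 3.06, 4.45 and 3.43 CPM in sham and 1.90, 1.39 and 1.80 CPM in SNI-NP rats without overlap (log2 fold change -1.10, SE 0.28, adjusted p = 0.348).

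In the citric acid cycle, which feeds the chain, 2 of 21 genes were lower (5.94% of all genes tested) and 0 higher, with a median log2 fold change of -0.11. *Sucla2*, a subunit of succinyl-CoA ligase, had 82.0, 83.1 and 81.4 CPM in sham and 62.8, 68.6 and 65.0 CPM in SNI-NP rats (log2 fold change -0.33, SE 0.09, adjusted p = 0.351). *Dld*, shared by the dehydrogenases of pyruvate and oxoglutarate, had a log2 fold change of -0.29 (SE 0.11). Of 23 carriers, porins and import genes 2 were lower and 0 higher, with a median of -0.04. The import receptor *Tomm70* had 31.9, 31.5 and 31.2 CPM in sham and 23.1, 22.8 and 23.6 CPM in SNI-NP rats (log2 fold change -0.44, SE 0.10, adjusted p = 0.323), with no overlap and little spread in either group. *Timm8b*, of the inner membrane import, had -0.43 (SE 0.17). None of 16 glycolysis genes passed, and their median was -0.01.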

How the data were processed

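RNA-seq libraries of rat spinal cord tissue were analysed, 3 of the sham and 3 of the SNI-NP group, with groups taken from the labels. The authors mapped the reads to the genome they call Rat6, and the submitters' processing notes name FastQC, STAR and HTSeq. They deposited 1 table that holds, for each gene, estimated counts that were not normalized and FPKM values. The counting annotation and the use of strand were not given in the sources used here. Depth was 16670760 to 18151156 estimated counts per library.

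The estimated counts were rounded to whole numbers. edgeR 4.0.16 in R 4.3.3 filtered low counts (filterByExpr), scaled libraries by TMM and gave the quasi-likelihood test (SNI-NP against sham, no covariate), with Benjamini-Hochberg adjustment over 14426 genes. For CPM values, counts were divided by the TMM-scaled library total. Gene lengths were derived from counts, totals and FPKM values deposited by the authors. The fit was tested on simulated data with 200 changed genes.

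The members and gene lists were chosen with earlier results of these data known. Named were, per complex, the 2 highest and the lowest member by FPKM and the 2 with the smallest p-values, the *Sdh* genes, isoform pairs, up to 3 genes of each list by p-value and abundant markers. The groups by role within complexes, and the further genes named, were chosen after the values were seen. Some genes are not reported here by name. Complexes were described and not tested against each other. Motifs were searched in RefSeq windows of GRCr8, whereas the files use Rat6. The labels do not state that replicates came from separate rats, so p-values measure the spread between these libraries, which may be partly technical. The alternatives were DESeq2 1.42.0, RLE and upper-quartile factors, other count filters, a replicate block, length offsets (loess span 0.5), limma 3.58.1 on log2(FPKM + 0.1), subunits only, members with whole counts only, leaving out each library, and summed entries of the same gene.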

Additional observations from a re-analysis of the deposited data

How the results depend on the processing

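The number of members past the unadjusted threshold, 10, was between 2 and 15 when 1 library was left out, 4 with a replicate block (9.14% of all genes) and 6 with length offsets and a replicate block (10.9% of all genes). The labels do not state whether the replicate numbers pair the libraries. Deviations of same-numbered libraries correlated at 0.24, -0.15 and 0.06, which with 3 libraries per group cannot decide it. No member passed an adjusted p-value of 0.05 in any setting. Over all genes, 210 passed it with DESeq2, 2 with limma on FPKM and between 0 and 222 when 1 library was left out, with 908 to 2134 genes past the unadjusted threshold. The median of the members stayed between -0.17 and -0.06 and those of complexes I to V between -0.17 and -0.045, -0.095 and -0.002, -0.31 and -0.14, -0.20 and -0.025, and -0.16 and -0.045. Of the 4 members called with the replicate block, all were among the 10.

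Some values changed sign, most of them near 0, the exceptions being *Cox6a2* (0.30) and *Uqcr10* (-0.17). *Ndufb8* was 0.005 with upper-quartile factors, 0.003 with the replicate block and -0.098 to 0.05 when 1 library was left out. *Sdhc* was -0.009 with DESeq2 and with RLE factors, -0.002 with at least 10 counts in every sample, 0.0 to 1 decimal with the replicate block, -0.019 with length offsets, -0.021 with these and the block, -0.043 with limma and -0.108 to 0.05 when 1 library was left out. *Uqcrc1* and *Atp5f1a* were both -0.018 with limma. *Cox6a2* was -0.088 with the replicate block, -0.062 with length offsets and the block and -0.346 with limma. When 1 library was left out, *Uqcrc1* was -0.105 to 0.081, *Atp5f1a* -0.1 to 0.06, *Atp5f1b* -0.045 to 0.084, *Sdhd* -0.059 to 0.028, *Uqcr10* -0.327 to 0.01, *Cox6a1* -0.171 to 0.024, *Cox8a* -0.148 to 0.006, *Cox4i1* -0.138 to 0.015, *Cox4i2* -0.154 to 0.084, *Cox6a2* -0.65 to 0.837, *Cox6b1* (ENSRNOG00000024309) -0.108 to 0.046, *Ndufa4* -0.245 to 0.001 and *Cyc1* -0.146 to 0.024. The causes were not tested. Summing entries that share reads, chosen after seeing the data, gave 9 of 89 members past the threshold.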
